A study of Sorghum bicolor with 12 samples.

Results

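Plant lipid transfer proteins are small, secreted, cysteine-rich proteins with a hydrophobic cavity that binds fatty acids and other lipids. They are best known for carrying lipid monomers towards the cell surface, where the cuticle of cutin and wax limits water loss, and some members also take part in defence signalling. The family is large, it shares a domain with protease inhibitors and seed storage proteins, and several of its members are known in other plants to be induced by drought, salt or abscisic acid (ABA).

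The 4 transcripts described here are Sb09g027600.1, the neighbours Sb06g016160.1 and Sb06g016170.1, and Sb03g039880.1. The study listed transcripts raised over 2-fold in all 3 replicates by drought and not by heat or by the combined stress. The 4 are lipid transfer proteins on that list as read here. Each is annotated as a protease inhibitor, seed storage and lipid transfer protein family member, and they are 4 of 28587 transcripts on the array. Each probe was found by matching the 3 listed fold changes of its transcript to ratios of the deposited values. The members were thus chosen by their level in drought relative to control, and the levels in heat and in combined stress relative to control entered the choice as ceilings. These 3 contrasts, and combined stress against drought, are given as descriptions with no test. The contrast of combined stress with heat took no part in the rule and is tested, although the arrays of both groups did take part. The ceiling on heat favours combined stress above heat, and the ceiling on combined stress works against it.

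The data were 12 arrays, 3 per group, of leaf RNA from seedlings of the *Sorghum bicolor* variety R16. Combined-stress plants had no water for 3 days from 14 days after sowing and were then held at 50 °C for 3 h, drought plants had no water for 3 days and stayed at 28 °C, heat plants were watered and held at 50 °C for 3 h, and control plants were watered and stayed at 28 °C. All 4 groups were in the dark during these 3 h, so control plants had also been darkened. The study used 6 plants per treatment and took the 3 youngest leaves, pooled within a treatment set. The study describes the 3 pools of a treatment as biological replicates. Pooling hides the spread between plants. Whether the pools of 1 group came from separate sowings was not given in the sources used here, so the p-values measure the spread between these arrays.

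Values are log2 signals of 1 dye relative to the 75th percentile of their own array, so that differences between groups are log2 fold changes, but the levels of different probes cannot be set against each other. The median signal of an array ranged from 222 to 298 in combined stress, 448 to 512 in drought, 365 to 434 in heat and 413 to 542 in control, and no spot was saturated. Arrays with the same replicate number lay on the same slide, and each of the 3 slides held 1 array of every group. Positions on the slide were not balanced over the groups. In replicates 1, 2 and 3, combined stress lay at positions 1, 1 and 2 and drought at 3, 4 and 3. Heat lay at 4, 2 and 1 and control at 2, 3 and 4. All 4 leaf (photosynthesis) markers were well above background on every array, with summed signals of 178703 to 323952 in combined stress, 173538 to 202338 in drought, 305082 to 340656 in heat and 149547 to 185474 in control. These sums follow mainly 1 of the 4, PSBR (Sb02g002830.1), with log2 signals of 6.86 to 7.20 in combined stress and 3.91 to 4.57 in control. The photosystem II family transcript Sb01g036240.1 lay the other way, at -1.78 to 2.29 in combined stress and 3.38 to 4.55 in control. RBCS1A (1.54 to 3.79 in combined stress and 3.56 to 4.83 in control) and LHCB6 (-1.94 to 1.63 and 1.12 to 2.71 in that order) had lower ranges in combined stress that overlapped those in control. With 3 arrays a group, precision is limited by their number.

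All 4 lipid transfer protein probes were well above background on all 12 arrays, so every level below was measured. In unwatered plants all 4 were higher than in watered plants at the same temperature, at 28 °C and at 50 °C, with no overlap between arrays. Such a separation was found in 14.7% of all 22546 transcripts tested for drought above control, which the rule favoured, in 14.5% for combined stress above heat and in 25.6% for combined stress above control. The 4 transcripts split on 2 points. Sb09g027600.1 had the largest difference between combined stress and heat, and its level in heat was below that in control on every array, while the heat and control arrays of the other 3 overlapped. In pooled leaves of mixed cell types, a change in RNA per cell and a change in the number of cells that hold it cannot be told apart.

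Sb09g027600.1 had normalized log2 signals of 1.14, 0.35 and 2.79 in combined stress (replicates 1, 2 and 3), 1.69, 1.32 and 3.17 in drought, -1.61, -1.84 and -1.79 in heat, and -1.43, -0.55 and -0.80 in control. Both unwatered groups lay above both watered groups on every array, and they overlapped each other. The 3 heat arrays were the lowest of the 12, and heat lay wholly below control in 31.8% of all transcripts tested.

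Sb06g016160.1 had log2 signals of 2.84, 2.81 and 3.44 in combined stress, 4.01, 3.66 and 5.22 in drought, 1.58, 1.75 and 1.12 in heat, and 1.02, 1.94 and 1.50 in control. Every drought array was above every combined-stress array here, and every combined-stress array was above every watered array, while heat and control overlapped. Combined stress lay wholly below drought in 18.9% of all transcripts tested.

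Sb06g016170.1, whose identifier follows directly on that of Sb06g016160.1, had 3.07, 3.13 and 3.73 in combined stress, 4.04, 3.88 and 5.32 in drought, 1.89, 2.30 and 1.54 in heat, and 1.30, 2.39 and 1.90 in control. Its groups fell in the same order, with every drought array again above every combined-stress array.

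Sb03g039880.1 had 3.09, 3.22 and 3.99 in combined stress, 3.41, 3.47 and 4.76 in drought, 1.93, 2.50 and 1.96 in heat, and 1.08, 2.40 and 1.92 in control. As for Sb09g027600.1, combined stress and drought overlapped, and both lay above every heat and control array.

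**Figure D1:**
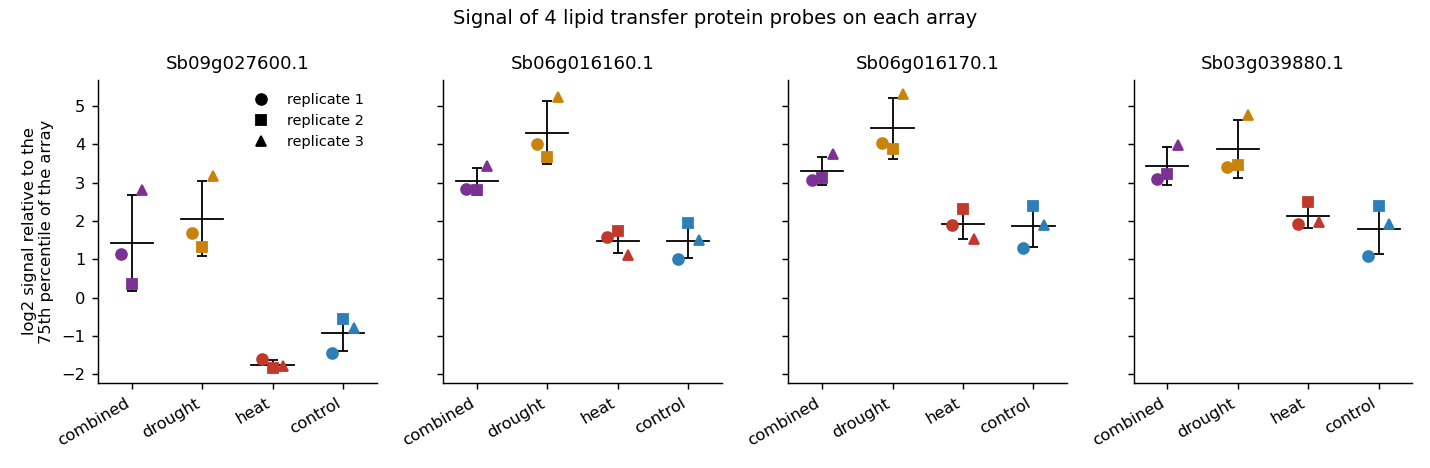
Normalized log2 signal (y axis, log2 relative to the 75th percentile of the array) of the 4 transcripts on each of the 12 arrays, by group. Points are arrays with a shape for each replicate, horizontal lines are group means and bars are the SD (n = 3). In each panel the combined-stress and drought arrays sit above all heat and control arrays.

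Drought against control is the contrast that chose the members, so its values carry no test and nothing is read from them. Averaged over same-numbered arrays, the log2 ratio was 2.99 ± 1.05 for Sb09g027600.1, 2.81 ± 1.01 for Sb06g016160.1, 2.55 ± 0.98 for Sb06g016170.1 and 2.08 ± 0.91 for Sb03g039880.1 (SD, n = 3), which is 7.94-, 7.01-, 5.85- and 4.22-fold. Over all 22546 transcripts tested, 4.36% were over 2-fold up in all 3 replicates, the property that the rule required, and the median log2 ratio of all transcripts was -0.11. In the order of drought ratios the 4 stood at ranks 360, 407, 498 and 743.

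The replicates differed in the same way in all 4. Replicate 3 gave the largest drought ratio, with log2 values of 3.96, 3.71, 3.42 and 2.84 in the order above, and replicate 2 the smallest, at 1.87, 1.72, 1.49 and 1.07. The member nearest to the 2-fold threshold was Sb03g039880.1 in replicate 2, where 1.07 stood against a threshold of 1. In that replicate the control array was the highest of the 3 control arrays for every member. The same order of the 3 control arrays, with array 2 highest and array 1 lowest, was found in 17.2% of all transcripts tested. The drought array of replicate 3 was the highest of its group for all 4 and for 39.7% of all transcripts, and the combined-stress array of replicate 3 was the highest of its group for all 4 and for 40.4% of all transcripts.

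Combined stress against control shows how close the members came to the combined-stress list. Their log2 ratios were 2.58, 0.90 and 3.59 in replicates 1, 2 and 3 for Sb09g027600.1, 1.82, 0.87 and 1.93 for Sb06g016160.1, 1.77, 0.73 and 1.83 for Sb06g016170.1, and 2.01, 0.82 and 2.06 for Sb03g039880.1. All 4 were over 2-fold up in replicates 1 and 3 and just under 2-fold in replicate 2, so each was kept off the list of rises in combined stress by that replicate alone. The mean ratios were 2.36 ± 1.36, 1.54 ± 0.58, 1.45 ± 0.62 and 1.63 ± 0.70 (SD, n = 3), between 2.73-fold for Sb06g016170.1 and 5.13-fold for Sb09g027600.1. A pass in replicates 1 and 3 with a miss in replicate 2 was found in 2.72% of all transcripts tested. It was found in 111 of the 243 other transcripts of the same drought list that rose and could be joined to a probe, so in this the 4 were not unlike many on their list.

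**Figure D2:**
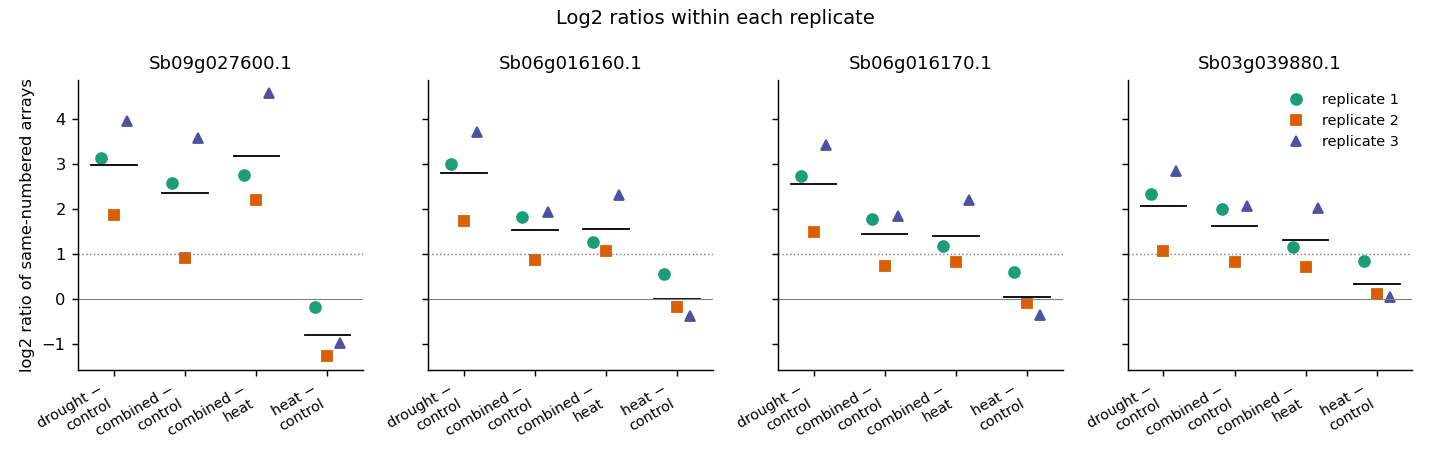
Log2 ratio of same-numbered arrays (y axis) for each of the 4 transcripts and 4 contrasts, with a colour and shape for each replicate, the mean as a horizontal line and the 2-fold threshold dotted. Replicate 2 has the lowest ratio of drought to control and of combined stress to control in every panel, and of combined stress to control it alone lies under the dotted line.

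In heat the mean log2 ratio to control was -0.82 ± 0.58 for Sb09g027600.1, -0.01 ± 0.50 for Sb06g016160.1, 0.05 ± 0.49 for Sb06g016170.1 and 0.33 ± 0.45 for Sb03g039880.1 (SD, n = 3). No replicate of any of the 4 reached 2-fold up, and the highest was 0.84 for Sb03g039880.1 in replicate 1. For Sb09g027600.1 the ratio was -0.17, -1.29 and -0.99 in replicates 1, 2 and 3, below 0 in each. For the other 3 the spread between replicates was larger than the mean. When slide position was added to the fit, the log2 difference of heat from control was -0.19 for Sb09g027600.1 and between 0.47 and 0.77 for the other 3.

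Whether these transcripts were also higher without water in plants held at 50 °C was read from combined stress against heat. The rule used the arrays of both groups as ceilings. All 4 were higher on every combined-stress array than on any heat array, as the 14.5% of all transcripts given above were. By limma over all 22546 transcripts, a call needed an adjusted p under 0.05 and a log2 difference beyond 1. Of the 4, 2 rose, against 3.36% of all transcripts and 32.9% of the 243 other rises of the same drought list. Sb09g027600.1 rose by 3.18 on the log2 scale (9.04-fold, 95% interval 1.86 to 4.49, limma adjusted p = 0.0193) and stood at rank 182 of all differences. Sb06g016160.1 rose by 1.55 (2.92-fold, 0.67 to 2.42, limma adjusted p = 0.04995), at the edge of the threshold. The log2 difference was 1.40 for Sb06g016170.1 (0.49 to 2.31, limma adjusted p = 0.0692) and 1.30 for Sb03g039880.1 (0.34 to 2.26, limma adjusted p = 0.0939), neither of which passed.

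Since the slides are known and each held all 4 groups, the same contrast was also fitted with the replicate number as a block. With the replicate block all 4 passed, at limma adjusted p of 0.0061, 0.0294, 0.0391 and 0.0374 in the order given for the fit without it, and 7.54% of all transcripts were called up. Within replicates 1, 2 and 3 the log2 differences were 2.75, 2.19 and 4.59 for Sb09g027600.1, 1.26, 1.06 and 2.32 for Sb06g016160.1, 1.18, 0.82 and 2.19 for Sb06g016170.1, and 1.16, 0.72 and 2.03 for Sb03g039880.1. All 12 were above 0, and replicate 3 was the highest for every member. Without replicate 1 both calls of the fit without the block were lost, with larger log2 differences of 3.39 for Sb09g027600.1 and 1.69 for Sb06g016160.1 (limma adjusted p = 0.475 and 0.571), and limma then called 2 transcripts up of all those tested, against 758 with all arrays. Both were also lost without replicate 3 (2.47 and 1.16, limma adjusted p = 0.0679 and 0.170, with 142 transcripts called up) and with slide position in the fit (3.53 and 1.76, limma adjusted p = 0.0537 and 0.0857, with 123 called up). Both were kept without replicate 2.

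**Figure D3:**
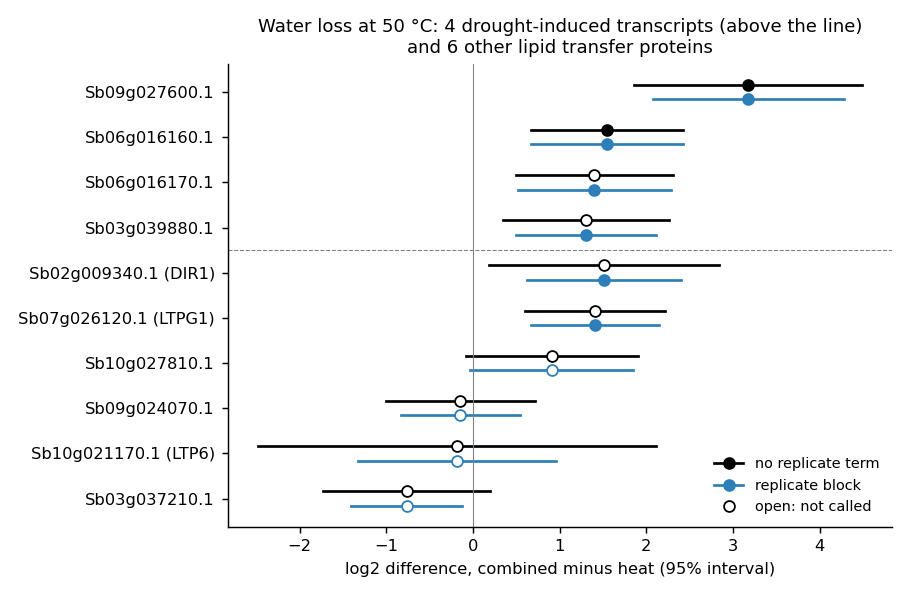
Log2 difference of combined stress minus heat (x axis) with its 95% interval from limma for the 4 drought-induced transcripts, above the dashed line, and the 6 other lipid transfer proteins below it. Black is the fit without a replicate term and blue the fit with the replicate block, and open points did not pass the call. All 4 upper intervals lie above 0 in both fits, with 2 of the 4 called in the first and all 4 in the second.

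The response to water loss at the 2 temperatures can be set side by side. Sb09g027600.1 had log2 differences of 3.18 between combined stress and heat and 2.99 between drought and control, and the first minus the second was 0.19 ± 0.51 (SD, n = 3), with 1 replicate of 3 below 0. The same quantity was -1.26 ± 0.55 for Sb06g016160.1, -1.15 ± 0.45 for Sb06g016170.1 and -0.77 ± 0.41 for Sb03g039880.1, below 0 in all 3 replicates of each. Directly between combined stress and drought, the log2 differences were -0.63 ± 0.31, -1.27 ± 0.47, -1.10 ± 0.43 and -0.45 ± 0.29 (SD, n = 3), again with Sb09g027600.1 first and Sb03g039880.1 last. All 12 same-numbered pairs were below 0. Of the 243 other rises of the same drought list, 16 had a log2 difference above 0, and their median was -1.04. A choice by high drought arrays favours this sign, so it is not particular to the 4. The values of the 4 share the drought arrays on which they were chosen, so they are not tested. With quantile normalization the median of the 4 was -1.33 in place of -0.87. When slide position was added to the fit that median was 0.17, on the other side of 0. Combined-stress and drought arrays shared no slide position, so that fit compares them only by way of the heat and control arrays.

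The rest of the drought list as read was set beside the members for the same contrast at 50 °C. This list held 249 rises, fewer than the study counted for this class. Of these, 247 could be joined to a probe, the 4 members among them. Of the 243 others, limma called 80 up in combined stress against heat, or 32.9%, against 3.36% of all transcripts. In 152 of them, or 62.6%, every combined-stress array was above every heat array, against 14.5% of all transcripts. The median log2 difference of the 243 was 1.68, against 1.47 for the 4 lipid transfer proteins and -0.0026 for all transcripts tested.

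The neighbouring genes Sb06g016160.1 and Sb06g016170.1 had the most similar pattern of any pair of the 4. Over the 12 arrays their log2 signals had a Pearson r of 0.997, and each was the first of 19102 transcripts in likeness to the other. These arrays share the drought response for which both were chosen, and after the group means were removed r was still 0.986. Probes of similar genes can bind each other's RNA, the probe sequences were not used here, and the part of shared binding in this likeness was not tested.

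The log2 signal of Sb06g016160.1 minus that of Sb06g016170.1 was -0.24, -0.32 and -0.30 in combined stress, -0.02, -0.22 and -0.10 in drought, -0.31, -0.56 and -0.42 in heat, and -0.28, -0.45 and -0.40 in control. Since these are signals of 2 probes, only the changes of this difference between groups can be read. In each replicate it was highest in drought and lowest in heat. The drought response of Sb06g016160.1 was larger than that of Sb06g016170.1 by 0.26, 0.23 and 0.29 in replicates 1, 2 and 3, a mean of 0.26 ± 0.03 on the log2 scale (SD, n = 3).

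The rule chose both genes on their drought and control arrays, so the comparisons that use those arrays are given as values with no test. Over same-numbered arrays, the difference changed by 0.09 ± 0.04 between combined stress and control, -0.17 ± 0.06 between combined stress and drought and -0.05 ± 0.04 between heat and control (SD, n = 3). Between combined stress and heat it changed by 0.08, 0.24 and 0.12 in replicates 1, 2 and 3, a mean of 0.15, with p = 0.20 by a 2-sided exact permutation test over the 6 arrays. With 3 arrays against 3 and slides ignored, that exact test cannot go below p = 0.10, so it could not have shown a difference.

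**Figure D4:**
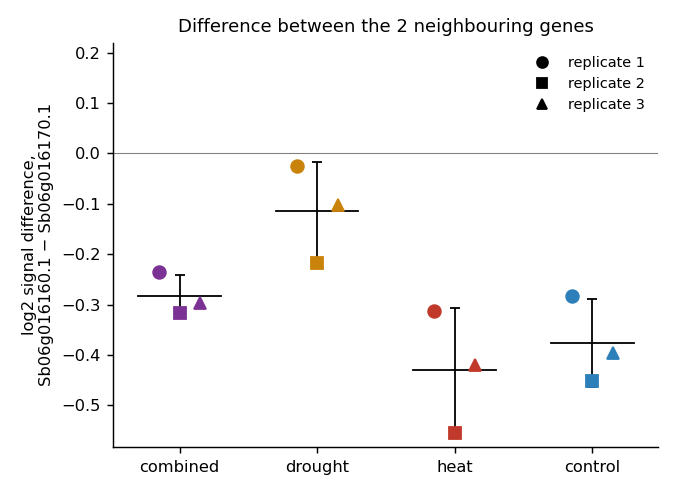
Log2 signal of Sb06g016160.1 minus that of Sb06g016170.1 (y axis) on each array, by group, with a shape for each replicate, the mean as a line and the SD as a bar (n = 3). The drought arrays lie between -0.22 and -0.02, above every array of the other groups.

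The other pairs of members were less alike. Sb03g039880.1 had r of 0.969 with Sb06g016170.1 and 0.952 with Sb06g016160.1, and Sb09g027600.1 had r of 0.935, 0.928 and 0.916 with Sb06g016160.1, Sb06g016170.1 and Sb03g039880.1. After the group means were removed these were 0.970 and 0.932 for Sb03g039880.1, and 0.822, 0.786 and 0.799 for Sb09g027600.1. High likeness within groups was thus not limited to the neighbours. Likeness was ranked over 19102 other transcripts detected on all 12 arrays, and only the 2066 with an Sb identifier could be named. The named transcripts nearest to Sb09g027600.1, at ranks 1, 2 and 3 of all, were Sb09g019350.1, annotated as a glycoside hydrolase family 2 protein (r = 0.992), Sb01g019100.1, an unknown protein (0.984), and Sb06g016500.1, annotated as the monooxygenase MO2 (0.984). After its neighbour, the nearest named ones to Sb06g016160.1, at ranks 2 and 4, were Sb04g021920.1, annotated as an invertase and pectin methylesterase inhibitor (0.971), and Sb06g013950.1, annotated as the metal-binding protein ATFP3 (0.967). Sb06g016170.1 had Sb03g039880.1 at rank 2 and Sb04g021920.1 at rank 5 (0.960). For Sb03g039880.1 the nearest named ones were Sb06g016170.1 at rank 3, Sb07g028920.1, annotated as the glucosyl transferase UGT89B1 (0.953), at rank 5 and Sb06g016160.1 at rank 6. All these r values are descriptions over 12 arrays of 4 groups that share the same treatments.

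The other lipid transfer proteins with an Sb identifier joined here did not move as one group. The 6 came from the study's drought and heat lists, so their counts are descriptions too. Of these, 2 (Sb10g027810.1 and DIR1) were listed as rises in drought. In combined stress against heat limma called 0 of the 6, and it called 3.36% of all transcripts up. In that fit 2 of the 6, LTPG1 and DIR1, had an unadjusted p under 0.05. With the replicate block limma called both up, as it did 7.54% of all transcripts. LTPG1 was listed as a fall only in heat, which favours combined stress above heat. The median log2 difference of the 6 was 0.38, with a range from -0.77 to 1.51, against 1.30 to 3.18 for the 4 members. DIR1 at 1.51 and LTPG1 at 1.41 lay within the range of the members.

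LTPG1 (Sb07g026120.1), named after a lipid transfer protein of Arabidopsis that a lipid anchor holds on the outer face of the plasma membrane and that is needed for export of surface wax, had log2 signals of 0.96, -0.24 and 1.56 in combined stress, 2.17, 2.22 and 2.05 in drought, -0.54, -0.92 and -0.49 in heat, and 1.80, 1.83 and 2.02 in control. It was lowest in heat and was near its control level in drought, where its log2 ratio was 0.26 ± 0.21 (SD, n = 3). Combined stress was above heat on every array, by 1.41 on the log2 scale (limma adjusted p = 0.0513), and it was called with the replicate block (limma adjusted p = 0.0232). LTPG1 was on the study's list of changes in heat alone and fell in heat. That choice favours combined stress above heat, so these p-values are descriptions.

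DIR1 (Sb02g009340.1), named after an Arabidopsis lipid transfer protein needed for systemic acquired resistance, was well above background on all 12 arrays, with log2 signals of -4.01, -2.43 and -2.33 in combined stress, -4.14, -1.99 and -3.40 in drought, -4.44, -3.88 and -4.97 in heat, and -5.37, -4.24 and -5.36 in control. Its log2 ratio of drought to control was 1.82 ± 0.53 (SD, n = 3), over 2-fold up in all 3 replicates. Combined stress and heat overlapped, and the log2 difference was 1.51 (limma adjusted p = 0.140). It too was called with the replicate block (limma adjusted p = 0.0322). Sb10g027810.1, a family member with no further name, had log2 ratios to control of 3.15 ± 0.49 in combined stress, 2.49 ± 1.07 in drought and 2.24 ± 0.51 in heat (SD, n = 3). Every array of all 3 treatments, heat included, lay above every control array. Of all transcripts tested, 14.7% lay so in drought, which its drought listing favoured, and 25.6% in combined stress. The share for heat was not counted. For Sb10g027810.1 the difference of combined stress from heat was 0.91 (limma adjusted p = 0.216).

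The remaining 3 differed from each other. LTP6 (Sb10g021170.1) had log2 ratios to control of -2.73 ± 0.84 in combined stress, -2.07 ± 1.41 in drought and -2.54 ± 0.08 in heat (SD, n = 3). Sb09g024070.1 had log2 ratios to control of -3.07 ± 0.15 in combined stress, -0.71 ± 0.56 in drought and -2.93 ± 0.43 in heat. Sb03g037210.1 had 1.14 ± 0.47, -0.16 ± 0.29 and 1.91 ± 0.47 in the same order, from a weak signal that was detected on 7 of the 12 arrays. The differences of combined stress from heat for these 3 were -0.19, -0.15 and -0.77 (limma adjusted p = 0.921, 0.829 and 0.276). Sb03g037210.1 was listed as a rise only in heat, which favours combined stress below heat.

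**Figure D5:**
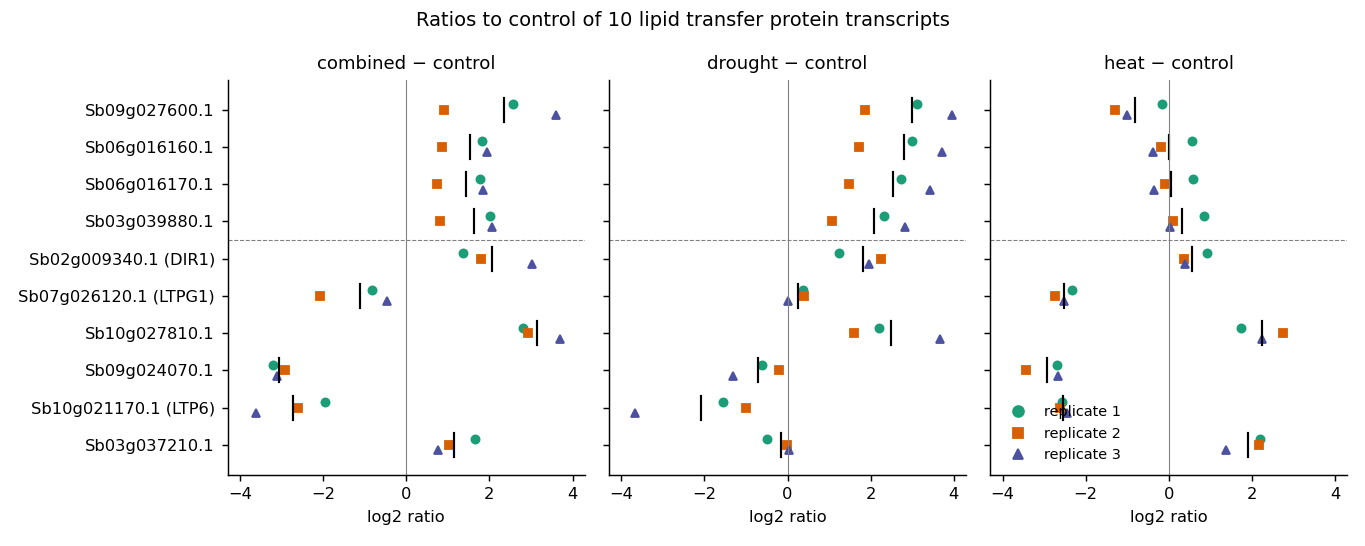
Log2 ratio to the same-numbered control array (x axis) for the 4 drought-induced transcripts, above the dashed line, and the 6 other lipid transfer proteins, below it, in combined stress, drought and heat, with a colour and shape for each replicate and the mean as a black line. The 4 upper transcripts lie right of 0 in combined stress and drought and near or below 0 in heat, while the lower 6 take both signs.

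Lipid transfer proteins are often discussed with the cuticle, so 21 wax and cuticle transcripts were set beside them. All 21 came from the study's lists of drought or heat changes, 9 of them as rises in drought, so their counts are descriptions. In combined stress against heat limma called 6 of the 21 up and 0 down, against 3.36% of all transcripts up, with a median log2 difference of 0.88. In this fit, without the replicate block, all 6 were among the 9 listed rises in drought. With the block limma also called transcripts outside those 6, as it called 7.54% of all transcripts up. Among them was Sb10g013313.1 (limma adjusted p = 0.0381), which was not a listed rise in drought. The largest differences were 3.00 for the CER1-like Sb01g019590.1 (limma adjusted p = 0.0333) and 2.97 for CER3 (Sb04g005330.1, limma adjusted p = 0.0423), both named after Arabidopsis proteins that make wax alkanes. The most negative were KCS5 (Sb10g009450.1), a fatty acid elongase, at -1.15 (limma adjusted p = 0.297), and the wax transporter WBC11 (Sb02g027350.1) at -1.07 (limma adjusted p = 0.144). Another WBC11 transcript, Sb10g013313.1, lay the other way at 2.67 (limma adjusted p = 0.0601) and was detected on 6 of 12 arrays. It was listed as changed only in heat, where its log2 ratio to control was -2.49, which favours combined stress above heat. CER3 had a log2 ratio to control of 0.42 in combined stress, 1.93 in drought and -2.54 in heat. The CER1-like transcript had 2.76, 3.22 and -0.24 in that order. This CER3 was listed both as a rise only in drought and as a fall only in heat. Its absence from the falls in combined stress favours combined stress above heat, so its p-value is a description.

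The 12 ABA- and dehydration-responsive transcripts were all taken from the study's list of rises in drought, so their count is a description too. Of the 12, limma called 10 up and 0 down in combined stress against heat, against 3.36% of all transcripts up. The median log2 difference of the 12 was 4.43. The largest were the dehydrin RAB18 (Sb09g018420.1), at 5.43 (limma adjusted p = 3.5e-04), and LTI65 (Sb01g017695.1), at 5.43 (limma adjusted p = 0.0043). None of the 12 was negative, and the smallest was 1.02. The medians of this list in drought against control were 5.70, 4.46 and 6.29 in replicates 1, 2 and 3, against 2.86, 1.61 and 3.57 for the 4 lipid transfer proteins, so replicate 2 was the smallest and replicate 3 the largest in both. In combined stress against heat they were 4.76, 3.77 and 3.87 for the list and 1.22, 0.94 and 2.26 for the 4.

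The 3 seed markers, of which 2 encode oleosins, proteins of storage lipid bodies, had summed signals of 1606 to 3693 in combined stress, 2831 to 17396 in drought, 98.2 to 157 in heat and 109 to 156 in control. OLEO1 (Sb01g050670.1) and PAP85 (Sb01g012640.1) had the same counts of arrays well above background. These were 3 of 3 in combined stress, 3 of 3 in drought, 2 of 3 in heat and 0 of 3 in control. The oleosin Sb10g017780.1 was well above background on every array, with log2 signals of -3.53 to -0.61 in drought and -4.78 to -4.35 in control. OLEO1 and PAP85 are among the largest drought rises that the study printed, so their higher signals in drought are a description. The 3 seed transcripts were higher on the same arrays as the 4 lipid transfer proteins, and their part in that result was not tested.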

How the data were processed

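Leaf RNA was measured on 1-colour Agilent arrays, 3 per group, and groups came from the sample labels. The authors deposited the spot intensity of each array from Agilent Feature Extraction (version 10.7.3.1), background-corrected and not normalized between arrays, with other columns of flags as the software gave them. A second file that the authors deposited holds normalized log2 values from GeneSpring, and was used to find the probes and as an alternative. Sb identifiers (2959) were joined to probes by matching listed fold changes to ratios of the deposited values within 2e-05 on the log2 scale, and of the longer heat lists the part that could be read was used.

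Processed signals were taken to log2 and centred on their array's 75th percentile (control spots excluded), outlier spots were left out and spots of a probe were averaged. Transcripts entered the test if at least 1 group had them detected on all of its arrays. limma 3.58.1 (R 4.3.3) fitted 4 group means over all 12 arrays, with Benjamini-Hochberg adjustment over 22546 transcripts and a call at an adjusted p under 0.05 and a log2 difference beyond 1. The exact permutation test used scipy 1.17.1 in python 3.11.15. Same-numbered arrays share a slide, and their departures from their group means correlated above 0.1 in 17 of 18 pairs (0.04 to 0.62), so the replicate block was an alternative fit. The transcripts named are the 4 members and 6 other lipid transfer proteins. From the wax and ABA lists they are up to 2 transcripts each way with the largest combined minus heat difference. Another transcript annotated as WBC11 is given beside the one so chosen. For each member, the 3 most correlated transcripts with an Sb identifier are also named. The members and lists were chosen with earlier results of these data known. The other alternatives were median scaling, quantile normalization, normexp background correction with quantile normalization, position on the slide, all probes, outlier spots left in, and leaving out each replicate.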

Additional observations from a re-analysis of the deposited data

How the results depend on the processing

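The direction of combined stress against heat was the same for all 4 transcripts under every alternative run, but the calls were near the threshold. limma called 2 of the 4, and 1 under median scaling, quantile normalization, normexp with quantile normalization, the deposited table, all probes and outlier spots left in, each time Sb09g027600.1. It called 4 with the replicate block and 0 with the position on the slide as a factor, where 1700 and 123 of all transcripts were called up, against 758 without either. Leaving out 1 replicate gave between 0 and 2 calls, 0 without replicate 1 (2 of all transcripts called up), 0 without replicate 3 (142) and 2 without replicate 2 (1571). The cause was not tested. The median log2 difference of the 4 between combined stress and heat was between 1.08 and 1.74 with 1 replicate left out. The median of the 4 between combined stress and control was 2.25 with the position factor, and between combined stress and drought it was -1.33 with quantile normalization, -1.34 with normexp and quantile normalization and 0.17 with the position factor; the cause was not tested. For the neighbours, the drought difference was 0.30 with quantile normalization and 0.30 with normexp and quantile normalization, the heat difference 0.0065 with quantile normalization, on the other side of 0 from its main value, and the combined-stress difference 0.15 with quantile normalization. The replicate block left every log2 difference of the members as it was, and no block was fitted for the neighbours. The signal limits Sb03g037210.1, detected on 7 of 12 arrays.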
